A study of Mus musculus with 12 samples.

Results

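Macrophages take up amino acids through carriers of the solute carrier (Slc) families, and 10 genes encoding such carriers or their shared subunit were followed in bone marrow-derived macrophages (BMDMs) stimulated with fenoterol, a selective agonist of the beta-2 adrenergic receptor (B2AR). The members were named by their roles at the plasma membrane, with earlier results of these data known. They are Slc3a2, Slc7a5, Slc7a8, Slc7a7, Slc7a1, Slc7a2, Slc1a5, Slc38a1, Slc38a2 and Slc43a2. All 10 were among the 53379 genes of the count table, and all 10 were among the 12386 genes that passed the filter on low counts.

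The cells came from the bone marrow of 4 mice of the strain C57Bl/6J. The study's methods describe the mice as males and give their age as a range of weeks. The cells were differentiated in medium conditioned by L929 cells, a fibroblast line that secretes macrophage growth factor. From each mouse, some cells got no treatment and others got 1 µM fenoterol for 1 h or for 4 h, in complete differentiation medium. The 3 groups of 4 libraries thus share the same 4 animals, and no genotype differs between them. The question put by this design is which genes respond early to B2AR stimulation and which respond later. Poly(A) RNA was sequenced, reads per gene were counted, and a library held between 14580533 and 24153284 counts. The 8 macrophage markers, which include Adgre1 and Csf1r, summed to between 670897 and 852433 normalized counts in every library, while 5 of 5 erythroid markers were at 0 and the 6 lymphocyte markers summed to at most 6.26. Neutrophil and granulocyte progenitor markers summed to 596 to 1217 normalized counts in untreated cells, 632 to 1121 at 1 h and 597 to 1031 at 4 h, stromal markers to 434 to 1323, 688 to 1184 and 662 to 1406, dendritic cell markers to 8.32 to 36.6 over all libraries, and mast cell and basophil markers to at most 3.07. The sum of the macrophage markers was lower at 4 h (670897 to 758573) than in untreated cells (791970 to 836573), and its part in the results below was not tested. In such bulk RNA, fewer cells expressing a gene and less RNA per cell cannot be told apart.

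Amino acid carriers of the plasma membrane differ in what they carry and in how they are driven. Slc3a2 encodes the CD98 heavy chain, a glycoprotein that carries no amino acid itself but brings light chains of the Slc7 family to the cell surface, where these exchange one amino acid for another. Other members are sodium-coupled glutamine and neutral amino acid carriers (Slc1a5, Slc38a1, Slc38a2), carriers of arginine and other cationic amino acids (Slc7a1, Slc7a2) and a facilitated carrier of large neutral amino acids (Slc43a2). In macrophages this uptake feeds protein synthesis, the use of arginine by enzymes of activated macrophages, and the activation of the kinase complex mTORC1 at the lysosome.

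The B2AR raises cAMP, and the transcription factor CREB, activated through cAMP, binds the cAMP response element TGACGTCA and its half-site TGACG. RefSeq promoter windows (GRCm38.p6, 250 bases before to 50 after a transcript start) were held for 6 of the 10 members, in 12 windows, and not for Slc7a5, Slc7a2, Slc1a5 and Slc38a1. On either strand, the full element TGACGTCA was in 0 of the 12 windows, against 1.79% of 32851 windows of all genes. The half-site was in 2 of the 12, against 20.8% of all windows. Counted by gene, it was in 2 of the 6 members, against 23.0% of all genes with a window. Slc7a7 alone had 5 of the 12 windows. The core TGATGNAA bound by ATF4 with C/EBP factors, was in 1 of the 6 members, Slc7a7, and in 4.51% of all genes with a window. The 250 bases before the start are shown for the 2 genes that rose most at 1 h, Slc3a2 and Slc7a1, and for Slc38a2, the other gene with a half-site, with the half-site in capitals (CGTCA is its reverse complement).
Slc3a2 (chr19:8713898-8714147, minus strand): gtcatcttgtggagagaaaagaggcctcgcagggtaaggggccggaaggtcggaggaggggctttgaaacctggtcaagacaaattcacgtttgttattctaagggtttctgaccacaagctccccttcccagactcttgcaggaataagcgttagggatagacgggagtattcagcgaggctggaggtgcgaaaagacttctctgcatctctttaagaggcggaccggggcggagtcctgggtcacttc
Slc7a1 (chr5:148399905-148400154, minus strand): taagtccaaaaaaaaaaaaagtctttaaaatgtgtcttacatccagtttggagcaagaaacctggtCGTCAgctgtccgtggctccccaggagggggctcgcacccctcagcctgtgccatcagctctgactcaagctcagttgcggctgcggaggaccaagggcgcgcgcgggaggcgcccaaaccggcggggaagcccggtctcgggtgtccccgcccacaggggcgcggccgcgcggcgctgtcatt
Slc38a2 (chr15:96699729-96699978, minus strand): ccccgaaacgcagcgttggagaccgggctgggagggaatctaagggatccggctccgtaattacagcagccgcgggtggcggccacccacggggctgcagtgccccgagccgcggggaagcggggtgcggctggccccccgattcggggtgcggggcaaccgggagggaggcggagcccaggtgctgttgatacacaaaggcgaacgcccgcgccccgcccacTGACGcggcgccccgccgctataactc
The half-site lay 184 bases before the start of Slc7a1, with another 14 bases after it, and 27 bases before the start of Slc38a2, and the window of Slc3a2 held none. The window of Slc3a2 begins inside the span that GENCODE gives the gene, so a start further upstream was not searched. A match describes these letters and says nothing about binding.

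Values below are counts normalized for library size and composition (TMM), and each value belongs to 1 mouse, in the order mouse 1 to mouse 4. Tests used the quasi-likelihood method of edgeR over all 12386 genes, with Benjamini-Hochberg adjusted p-values (adjusted p) called below 0.05. Because each mouse gave cells to every group, the same fit was also made with the mouse as a replicate block. Its value is given where it changed the call of a member, or the call of another gene named against untreated cells.

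At 1 h, 2 of the 10 members rose and 0 fell, where 10.0% of all tested genes were called higher and 10.1% lower. The 2 were Slc3a2 and Slc7a1, and each more than doubled. The log2 fold change was above 0 for 9 of the 10 members, with a median of 0.23, against a median of -0.0049 over all genes tested. With the mouse as a block, 6 members rose (Slc3a2, Slc7a1, Slc38a2, Slc38a1, Slc7a8 and Slc7a5) and 0 fell, where 13.3% of all genes were called higher and 13.7% lower in that fit. At 4 h, 4 members were above untreated cells (Slc3a2, Slc7a1, Slc38a1 and Slc43a2) and 0 below, where 19.7% of all genes were called higher and 20.4% lower, and the median of the members was 0.25 against 0.0042 for all genes. With the block these were 4 higher and 1 lower, Slc1a5, against 23.6% and 23.8% of all genes. Between 1 h and 4 h, 1 member rose (Slc38a1) and 2 fell (Slc3a2 and Slc7a1), where 18.7% of all genes were called higher and 19.8% lower, and 2 rose and 4 fell with the block, against 23.0% and 23.6%. The 2 comparisons with untreated cells share their control libraries.

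**Figure D1:**
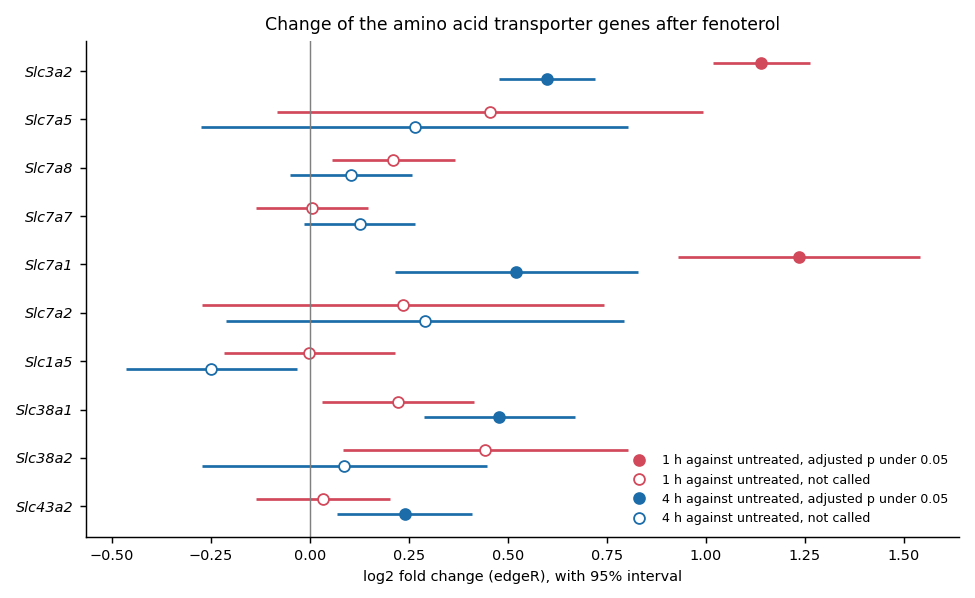
Log2 fold change of each member at 1 h (red) and 4 h (blue) against untreated BMDMs, from edgeR's fit of 12 libraries, with 95% intervals as bars and filled points where the adjusted p is under 0.05. Slc3a2 and Slc7a1 lie above 1 at 1 h and near 0.5 to 0.6 at 4 h, and Slc38a1 and Slc43a2 are called at 4 h alone.

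Slc3a2 (ENSMUSG00000010095, GRCm38 chr19:8706882-8723369, minus strand), the shared heavy chain, had the smallest standard error of the members. Untreated cells held 5085, 5553, 5651 and 5281 normalized counts, the 1 h libraries 11657, 12392, 11716 and 11770, and the 4 h libraries 8274, 8137, 8807 and 7446. Every library at 1 h was above every library at 4 h, and every library at 4 h was above every untreated one. The mean rose from 5392 ± 258 (SD, n = 4) to 11884 ± 342 at 1 h, a 2.20-fold change with a 95% interval of 2.02 to 2.40 (log2 fold change 1.14, SE 0.057, adjusted p = 1.51e-09), which placed it at position 99 of all genes by p-value. At 4 h it was 8166 ± 560, or 1.51-fold above untreated cells (log2 fold change 0.60, SE 0.057, adjusted p = 9.14e-07). From 1 h to 4 h it fell by 0.54 on the log2 scale (SE 0.057, adjusted p = 3.56e-06), in 4 of 4 mice. Of the rise seen at 1 h, 42.7% was left at 4 h, with a range over the mice of 33.4% to 52.0%.

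**Figure D2:**
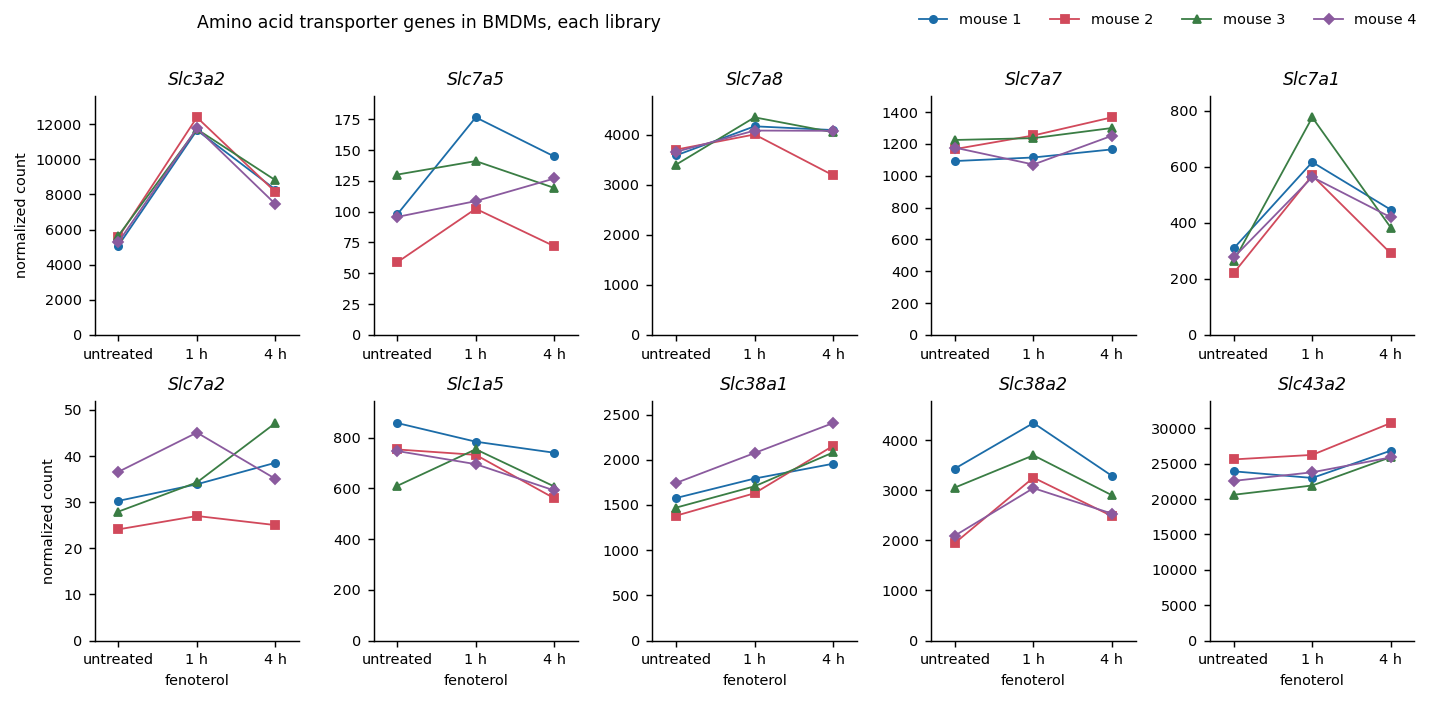
Normalized counts of each member in all 12 libraries, with 1 panel per gene, the groups on the x axis and a line for each mouse; every y axis starts at 0. Slc3a2 and Slc7a1 peak at 1 h in all 4 mice, Slc38a2 is higher in mice 1 and 3 than in mice 2 and 4 in every group, and Slc38a1 rises at both steps.

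The 3 light chains among the members gave smaller log2 fold changes than their heavy chain. Slc7a8 (LAT2; chr14:54722209-54781946, minus strand), which exchanges neutral amino acids, had 3587, 3702, 3401 and 3659 normalized counts in untreated cells, 4169, 4006, 4348 and 4083 at 1 h, and 4094, 3188, 4050 and 4078 at 4 h. The untreated and 1 h libraries did not overlap, yet the log2 fold change of 0.21 (SE 0.072) had an adjusted p of 0.0540, and with the mouse as a block it was called (adjusted p = 0.0197). It was also called with DESeq2 (adjusted p = 0.0277), with RLE scaling (0.0479), with the 2 groups alone (0.00886) and without 4 h mouse 2 (0.00473). At 4 h it was 0.10 (95% interval -0.051 to 0.26, adjusted p = 0.283), with mouse 2 apart from the other libraries of its group. Without that library the 4 h change was 0.18 and was called (adjusted p = 0.00956).

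Slc7a7 (y+LAT1; chr14:54369442-54417780, minus strand), which exports cationic amino acids in exchange for neutral ones, gave the smallest log2 fold change of these light chains at 1 h. It had 1093, 1168, 1225 and 1177 normalized counts in untreated cells, 1115, 1253, 1237 and 1071 at 1 h, and 1166, 1367, 1300 and 1252 at 4 h. The groups overlapped, with a log2 fold change of 0.0043 at 1 h (95% interval -0.14 to 0.15, adjusted p = 0.981) and 0.13 at 4 h (95% interval -0.015 to 0.27, adjusted p = 0.150). Of its exon bases, 7.0% lie opposite exons of Oxa1l, which had 22502 counts over all libraries against 14450 for Slc7a7, and the strand setting of the counting was not given in the sources used here.

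Slc7a5 (LAT1; chr8:121881150-121907694, minus strand), the light chain that carries leucine and other large neutral amino acids into many dividing cells, was scarce here. Its untreated libraries held 97.8, 58.9, 130.1 and 95.7 normalized counts, those at 1 h 177, 102, 141 and 109, and those at 4 h 145, 72.0, 119 and 127. All 4 mice were higher at 1 h than untreated, but the groups overlapped and the log2 fold change of 0.46 was not called (SE 0.25, adjusted p = 0.247). The block, which removes the level of each mouse, gave 0.47 and a call (adjusted p = 0.0296). At 4 h the log2 fold change was 0.26 (95% interval -0.27 to 0.80, adjusted p = 0.440). Leaving out each library in turn gave values between 0.29 and 0.64 for 1 h, and between 0.10 and 0.44 for 4 h.

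Compared per exon length, as TPM (transcript counts scaled for length and to a fixed total), the heavy chain was above its light chains in every library. The ratio of Slc3a2 to the summed TPM of Slc7a5, Slc7a7 and Slc7a8 was 1.40 ± 0.0643 (SD, n = 4, range 1.34 to 1.48) in untreated cells, 2.77 ± 0.143 (2.59 to 2.91) at 1 h and 1.96 ± 0.183 (1.72 to 2.16) at 4 h. The 3 ranges did not overlap, and no test was made of this ratio because the members were brought together for it. The summed light chains were 194 ± 4.30 TPM in untreated cells, 206 ± 10.0 at 1 h and 211 ± 14.8 at 4 h, and Slc7a8 made up 65.5%, 68.1% and 64.8% of them. With 2 further light chains that are no members, Slc7a6 and Slc7a11, the ratio was 1.35, 2.68 and 1.90.

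**Figure D3:**
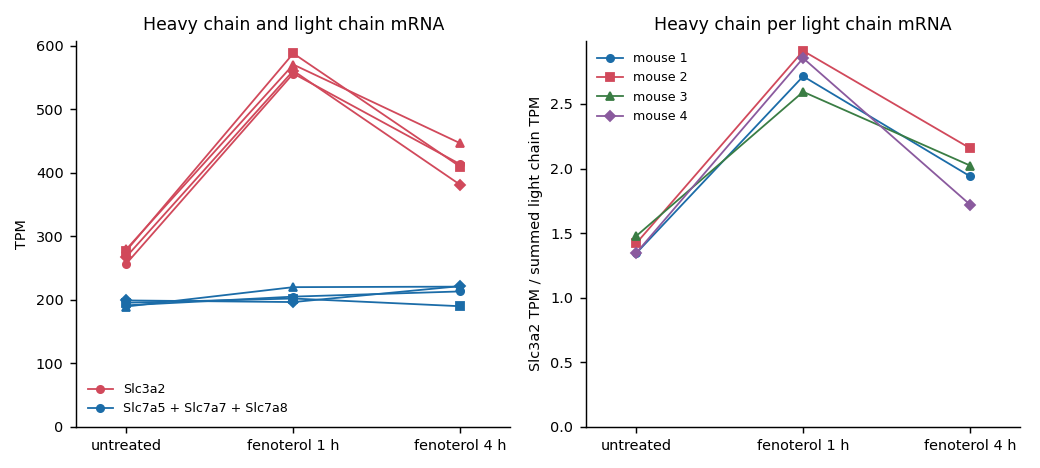
Left, TPM of Slc3a2 (red) and the summed TPM of the light chains Slc7a5, Slc7a7 and Slc7a8 (blue) in each library, with 1 line per mouse; right, their ratio in each mouse. The ratio lies between 1.34 and 1.48 untreated, 2.59 and 2.91 at 1 h and 1.72 and 2.16 at 4 h, with the light chain sum near 200 TPM throughout.

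Of the carriers of cationic amino acids, Slc7a1 rose and Slc7a2 did not pass the test. Slc7a1 (CAT1; chr5:148327410-148399904, minus strand), the widely expressed arginine and lysine carrier, had 309, 221, 263 and 276 normalized counts in untreated cells, 617, 569, 777 and 564 at 1 h, and 447, 291, 383 and 420 at 4 h. All the 1 h libraries were above all others, while those at 4 h overlapped with the untreated ones through mouse 2. From 267 ± 36.4 (SD, n = 4) it rose to 632 ± 99.8 at 1 h, a 2.35-fold change with a 95% interval of 1.90 to 2.91 (log2 fold change 1.23, SE 0.14, adjusted p = 1.47e-05). At 4 h it was 385 ± 68.1 (log2 fold change 0.52, SE 0.14, adjusted p = 0.00934), higher than untreated in 4 of 4 mice. Between the 2 times it fell by 0.71 on the log2 scale (SE 0.14, adjusted p = 0.000933). Of its 1 h rise 32.3% was left at 4 h, with 20.1% to 49.9% over the mice, a range that overlaps that of Slc3a2.

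Slc7a2 (CAT2; chr8:40862396-40922308, plus strand), the arginine carrier that macrophages are known to induce on activation, was the least abundant member. It had 30.3, 24.1, 28.0 and 36.6 normalized counts in untreated cells, 33.9, 27.0, 34.3 and 45.1 at 1 h and 38.6, 25.0, 47.2 and 35.1 at 4 h, with all groups overlapping. At this depth the log2 fold changes of 0.23 at 1 h (95% interval -0.27 to 0.74, adjusted p = 0.570) and 0.29 at 4 h (95% interval -0.21 to 0.79, adjusted p = 0.357) leave room for a change of either sign. Leaving out each library in turn gave values between 0.092 and 0.35 for 1 h, and between 0.14 and 0.43 for 4 h.

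Of the 3 sodium-coupled carriers, Slc38a1 was called at 4 h, and the calls of Slc38a2 and Slc1a5 depended on the setting. Slc38a2 (SNAT2; chr15:96687392-96699730, minus strand), a carrier of small neutral amino acids that cells raise when starved of them, had 3435, 1948, 3056 and 2096 normalized counts in untreated cells, 4346, 3255, 3701 and 3045 at 1 h, and 3289, 2485, 2902 and 2535 at 4 h. Mice 1 and 3 were above mice 2 and 4 in every group, so the groups overlapped although all 4 mice were higher at 1 h. The log2 fold change at 1 h was 0.44 (SE 0.17, 95% interval 0.084 to 0.80, adjusted p = 0.0825), and with the mouse as a block it was 0.46 and was called (SE 0.068, adjusted p = 5.41e-05). It was also called with no filter (adjusted p = 0.0192) and without untreated mouse 1 (0.60, adjusted p = 0.0211). At 4 h it was 0.087 (95% interval -0.27 to 0.45, adjusted p = 0.727), and from 1 h to 4 h it was -0.36 (adjusted p = 0.110), which was called with the block (-0.35, adjusted p = 0.000426) and with the 2 groups alone (adjusted p = 0.0350).

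Slc38a1 (SNAT1; chr15:96571418-96642913, minus strand), a related glutamine carrier that lies near Slc38a2 on the chromosome, had its highest level at 4 h. It had 1576, 1381, 1470 and 1743 normalized counts in untreated cells, 1792, 1629, 1706 and 2074 at 1 h, and 1956, 2154, 2081 and 2406 at 4 h. Every mouse was higher at 1 h than untreated and higher again at 4 h, and the 4 h libraries did not overlap with the untreated ones. The log2 fold change was 0.22 at 1 h (SE 0.089, adjusted p = 0.103, or 0.00557 with the block and 0.0402 without untreated mouse 4) and 0.48 at 4 h (SE 0.089, 1.39-fold, adjusted p = 0.000564). From 1 h to 4 h it rose by 0.26 (SE 0.089, adjusted p = 0.0341), a call that was lost when any of 5 libraries was left out (1 h of mouse 1, 2 or 3, or 4 h of mouse 2 or 4), with values down to 0.20.

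Slc1a5 (ASCT2; chr7:16781340-16798274, plus strand), which exchanges glutamine for other neutral amino acids, was the 1 member with a value below 0 at 4 h. It had 858, 754, 610 and 748 normalized counts in untreated cells, 784, 732, 754 and 696 at 1 h, and 741, 561, 608 and 592 at 4 h. The groups overlapped, and mouse 3 was barely lower at 4 h than untreated. The log2 fold change was -0.0017 at 1 h (95% interval -0.22 to 0.21, adjusted p = 0.994) and -0.25 at 4 h (SE 0.10, adjusted p = 0.0642), and the block called the latter (adjusted p = 0.0126), as it did the difference from 1 h to 4 h (-0.25, adjusted p = 0.0674 without and 0.0111 with the block). The 4 h value was also called without 4 h mouse 1 (-0.34, adjusted p = 0.0123) or untreated mouse 3 (-0.34, adjusted p = 0.00916). The difference between the times was also called with the 2 groups alone (adjusted p = 0.0416) and without 4 h mouse 1 (0.0135), untreated mouse 1 (0.0492) or untreated mouse 3 (0.0272), while scaling by library size only gave -0.16 (adjusted p = 0.227).

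Slc43a2 (LAT4; chr11:75531694-75577575, plus strand), which lets branched-chain amino acids, phenylalanine and methionine through without exchange or a heavy chain, was the most abundant member in untreated cells. Its untreated libraries held 23912, 25595, 20599 and 22561 normalized counts, those at 1 h 22974, 26233, 21908 and 23774, and those at 4 h 26833, 30739, 25915 and 25883. At 1 h the groups overlapped (log2 fold change 0.034, 95% interval -0.14 to 0.20, adjusted p = 0.83), and at 4 h all libraries were above all untreated ones. The rise at 4 h was 0.24 on the log2 scale (SE 0.079, 1.18-fold, adjusted p = 0.0259), and it was not called without untreated mouse 3 (0.18, adjusted p = 0.102), untreated mouse 4 (0.22, adjusted p = 0.0784) or 4 h mouse 2 (0.18, adjusted p = 0.0862). With the block its adjusted p was 0.00016, and the difference from 1 h to 4 h, 0.20, was called as well (adjusted p = 0.000783, against 0.0541 without). That difference was also called with DESeq2 (adjusted p = 0.0413), with scaling by library size only (0.00522) and without 1 h mouse 2 (0.0263) or untreated mouse 2 (0.0466). Of its exon bases 9.18% lie opposite Gm45606, which had 3250 counts over all libraries against 296825.

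Per exon length the members spanned a wide range in untreated cells. Slc43a2 led with 408 ± 38.7 TPM (SD, n = 4), above 97.5% of the genes tested, followed by Slc3a2 with 270 ± 10.4 and Slc7a8 with 127 ± 5.65. Slc7a7 (62.2 ± 2.52) and Slc38a2 (52.7 ± 14.5) came next and overlapped. Slc1a5 (31.5 ± 4.57) and Slc38a1 (15.8 ± 1.75) followed, then Slc7a5 (4.56 ± 1.36) and Slc7a1 (4.11 ± 0.585), which overlapped and changed places when the longest transcript was used as the length. Slc7a2 was lowest at 0.577 ± 0.106 TPM, above 4.13% of the genes tested. At 1 h Slc3a2, at 569 ± 14.1 TPM, stood above Slc43a2, at 399 ± 27.4, with no overlap, and at 4 h Slc43a2 was again first. Slc7a1 stood above Slc7a5 at 1 h (9.27 against 6.03 TPM) with no overlap, and overlapped with it at 4 h. The 10 members summed to 977 ± 35.5 TPM in untreated cells, 1299 ± 31.0 at 1 h and 1221 ± 30.7 at 4 h. Slc3a2, which carries no amino acid itself, made up 270, 569 and 412 TPM of these sums.

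**Figure D4:**
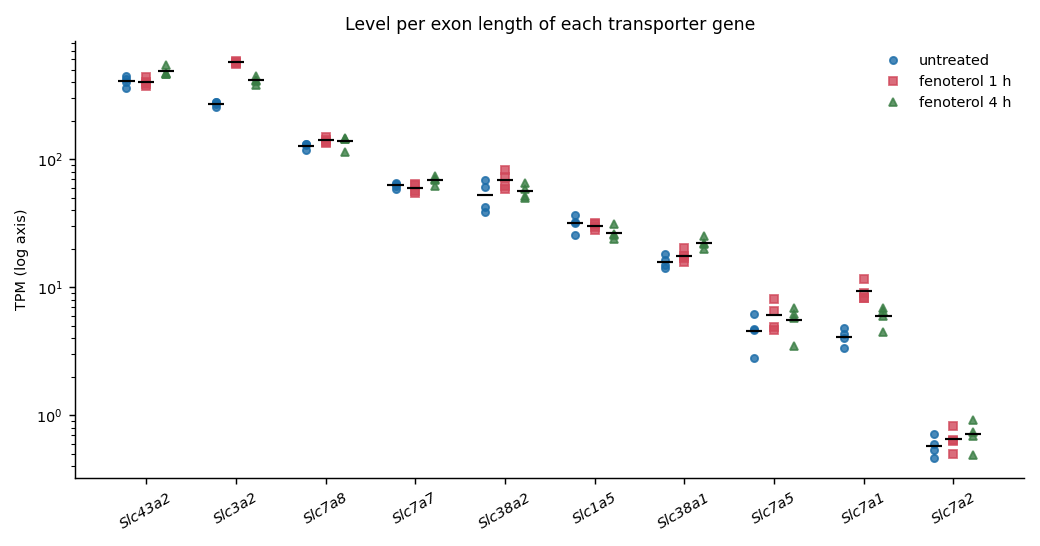
TPM of each member on a log axis, ordered by the untreated mean, with 4 libraries per group as points and the group mean as a black bar. Slc43a2 and Slc3a2 exchange the first place at 1 h, and Slc7a2 lies below 1 TPM in every group.

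The mice differed in the level of several members whatever the treatment, and mouse 2 was often apart. Slc7a5 and Slc7a2 were lowest in mouse 2 in all 3 groups, by a mean of -0.54 and -0.38 on the log2 scale against the group means. Slc43a2 was highest in mouse 2 in all 3 groups (0.16), Slc38a1 in mouse 4 (0.19), and Slc38a2 and Slc1a5 in mouse 1 (0.32 and 0.18). Slc3a2 varied least between the mice, from -0.058 to 0.053. This spread between animals is what the block removes.

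The genes whose course over the 12 libraries was most like that of Slc3a2 were Pim1 (Pearson r = 0.993 on log2 normalized counts), Jdp2 (0.992) and Arl4c (0.992), chosen as the 3 highest of 10289 genes. Pim1, a kinase gene, went from 728 normalized counts to 4906 at 1 h and 1884 at 4 h. Jdp2, a gene for a transcription factor that binds AP-1 sites, went from 170 to 2814 and 681, and Arl4c, a small GTPase gene, from 4821 to 12739 and 8468. These libraries fall into the 3 groups of the design, so r here describes a shared order of the groups and carries no p-value.

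The members were then set beside 7 lists of genes that carry, sense or use amino acids, for which the shares of all genes called are those given above. Among 23 other cell surface carriers, 7 were expressed enough to be tested. Of these, 1 rose and 0 fell at 1 h (median log2 fold change 0.11), and 2 rose and 3 fell at 4 h (median -0.14). The cystine carrier Slc7a11, a further light chain of CD98, rose from 18.1 normalized counts to 71.0 at 1 h and 146 at 4 h (log2 fold changes 1.94 and 2.97, adjusted p = 0.00084 and 4.83e-06). Slc7a6, another light chain, fell by 0.47 at 4 h (adjusted p = 0.00769), and Slc16a10, a carrier of aromatic amino acids, fell by 1.64 at 4 h (adjusted p = 2.01e-08), after 0.20 at 1 h (adjusted p = 0.205, or 0.0488 with the block). Slc6a19 rose at 4 h from a level of 0 to 6 counts a library to 10 to 25.

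Lysosomal carriers changed in both directions, with 2 higher and 5 lower of 8 tested at 1 h (median -0.24) and 2 and 4 at 4 h (median -0.21). Slc15a3 and Slc15a4, which both carry histidine and peptides, moved apart, the first by 1.55 at 1 h and 1.91 at 4 h and the second by -0.92 and -1.79 (adjusted p at most 9.08e-08). Slc36a1, a carrier of small neutral amino acids, fell at both times (-0.28 and -0.45, adjusted p = 0.0128 and 0.000135), and Slc38a9, the arginine sensor of the lysosome, gave 0.036 and 0.18 (adjusted p = 0.828 and 0.0972, the latter 0.0474 with the block). Of 9 mitochondrial carriers tested, 1 rose and 1 fell at 1 h (median 0.037) and 2 rose and 1 fell at 4 h (median 0.089), the latter being Slc25a13, an aspartate and glutamate carrier (-1.10, adjusted p = 3.91e-07).

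Of 17 enzymes of arginine, polyamine and glutamine metabolism tested, 4 rose and 1 fell at 1 h (median 0.11) and 6 rose and 3 fell at 4 h (median -0.0034). Odc1, which makes putrescine from ornithine, went from 131 to 2030 ± 1188 (SD, n = 4) normalized counts at 1 h and 2374 ± 1377 at 4 h (log2 fold changes 3.96 and 4.18, adjusted p = 0.00149 and 0.000435). Its libraries differed widely, with 60 to 180 counts untreated, 248 to 2640 at 1 h and 441 to 3675 at 4 h. At both times 4 of 4 mice were higher than untreated. Azin1, a relative of Odc1 that binds the antizyme inhibiting it, rose by 1.03 and 0.81 (adjusted p = 9.38e-06 and 4.34e-05). Ass1, which rebuilds arginine, rose by 1.91 at 4 h (adjusted p = 1.2e-05), Glul, which makes glutamine, fell by 0.52 (adjusted p = 0.00144), and Nos2, at 0 to 2 counts a library, was not tested.

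Of 26 genes of amino acid sensing upstream of mTORC1, 2 rose and 7 fell at 1 h (median -0.0046), and 6 rose and 10 fell at 4 h (median 0.023). Among the 3 sestrins, Sesn1 fell at both times (-1.57 and -2.42, adjusted p = 1.48e-08 and 1.76e-10). Sesn2, a leucine sensor, rose at both (0.53 and 0.64, adjusted p = 0.000107 and 7.95e-06), and Sesn3 rose at 4 h (0.84, adjusted p = 6.7e-05). In untreated cells Sesn1 had a mean of 9312 normalized counts, Sesn2 854 and Sesn3 528. Sesn2 and Sesn3 were named after their values were seen, to complete the family. Of the arginine sensor genes, Castor1 (listed as Gatsl3) rose by 1.96 and 1.53 (adjusted p = 1.68e-07 and 1.23e-06) and Castor2 (listed as Gatsl2) by 1.47 at 4 h (adjusted p = 3.15e-10). Bmt2, also called Samtor, a sensor of S-adenosylmethionine, fell at both times (-1.19 and -0.81), as did Fnip2 (-0.32 and -1.41, adjusted p = 0.0432 and 7.17e-08), and the Rag GTPase gene Rragd fell at 4 h (-1.06, adjusted p = 5.04e-05). Of 14 genes of the ATF4 amino acid response tested, 4 rose and 1 fell at 1 h (median -0.018), and 5 rose and 4 fell at 4 h (median -0.045). Ddit4 (2.12 at both times), Psat1 (1.54 and 1.23), Mthfd2 (1.24 and 1.08) and Trib3 (0.80 and 1.01) rose at both times, Atf4 itself rose by 0.42 at 4 h (its 0.20 at 1 h had an adjusted p of 0.0562, or 0.00417 with the block), and Vldlr fell by 1.11 from a mean of 23.1 normalized counts. Asns, which makes asparagine, gave 0.25 and 0.26 (adjusted p = 0.356 and 0.242). Of 20 cytosolic aminoacyl-tRNA synthetases, 1 rose and 0 fell at 1 h (median 0.00022), and 6 rose and 5 fell at 4 h (median 0.053). In the comparisons with untreated cells, the lists whose counts moved by more than 1.5 times with the block were the other surface carriers (2 higher at 1 h), the synthetases (2 higher at 1 h), the ATF4 list (2 lower at 1 h) and the mitochondrial carriers (2 lower at 4 h).

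**Figure D5:**
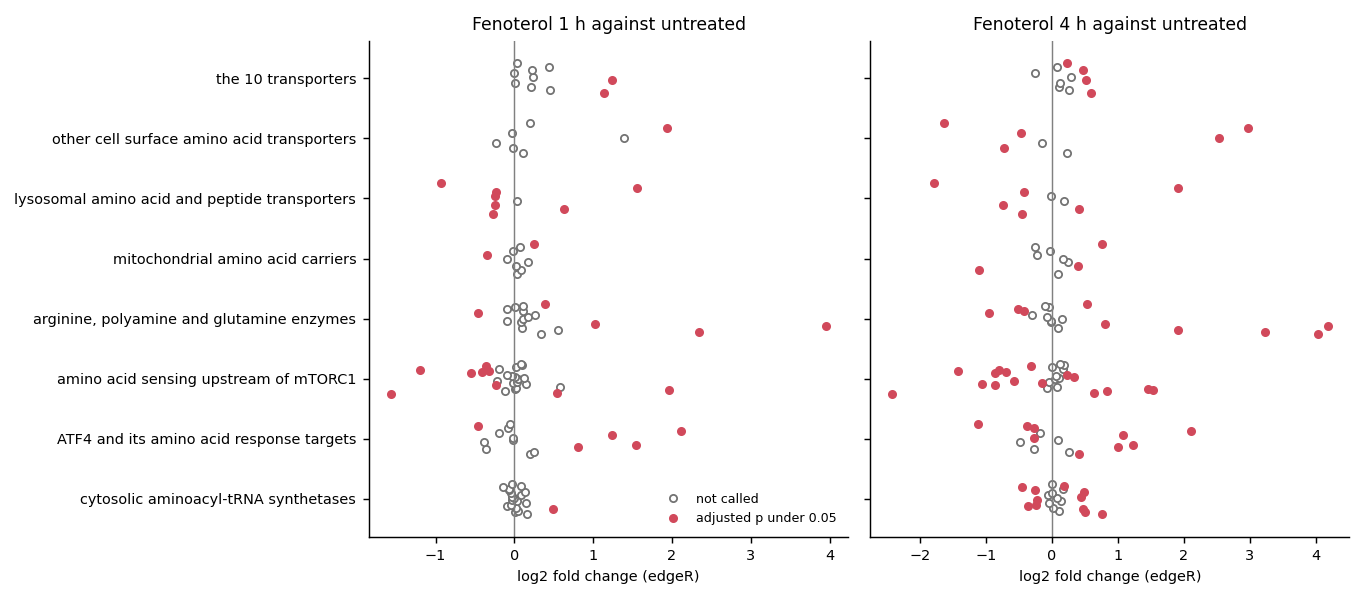
Log2 fold change of every tested gene at 1 h (left) and 4 h (right) against untreated BMDMs, by list, with 1 point per gene and red points where the adjusted p is under 0.05. In this fit the 10 transporters have called genes on the right of 0 alone, while the other lists have called genes on both sides at 4 h. At 1 h the other surface carriers and the synthetases also have called genes on the right alone. With the mouse as a replicate block, Slc1a5 was called lower at 4 h (adjusted p = 0.0126). The difference between the transporters and the lists was not tested.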

How the data were processed

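The authors extracted RNA from BMDMs of 4 mice in 3 conditions, made stranded mRNA libraries, sequenced single reads of 50 bases, aligned them to GRCm38 with TopHat2 2.0.11 and counted reads per gene with HTSeq 0.8.0. The deposited table holds these counts as they were, without normalization, for 53379 genes in 12 libraries. The strand setting and annotation release of the counting were not given in the sources used here. Reads that match more than 1 place could be lost, which can lower genes that share sequence with others. The share of 50-base stretches of a member found in other genes was 0% to 8.75%.

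Here genes were named with GENCODE M21 (105 identifiers had no entry). Genes with low counts were removed with edgeR's filterByExpr, libraries were scaled by TMM (factors 0.953 to 1.04), and the 12 libraries were fitted in 1 quasi-likelihood model with a mean per group (edgeR 4.0.16, R 4.3.3), with Benjamini-Hochberg adjustment over 12386 genes. TPM used the union of exons. The study's methods name limma with no covariate. The replicate number is the mouse, so the numbers pair the libraries by origin: deviations from the group means correlated at 0.292 to 0.563 for the same mouse and -0.297 to 0.0796 for different mice. Nothing in the labels says that wells of a mouse were repeated, so p-values measure the spread between animals and cultures together.

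On simulated data with 200 changed genes of 12159 for 1 h against untreated, the test recovered 189 with 12 false calls. The changed genes were drawn from well-counted genes alone, and 134 of them changed 2-fold or more, of which 133 were recovered. No difference between mice was simulated, and a smaller share of genes was changed than was called in the data. The share recovered therefore does not carry over to scarce members or to small changes. Alternatives were DESeq2 1.42.0, limma-voom (limma 3.58.1), 2 other scalings, no filter, a mean count of at least 50, the 2 groups alone, the mouse as a replicate block, and leaving out each library. The members and gene lists were chosen with earlier results of these data known. Genes named from the lists were those called with a change of at least 2-fold, at most 6 per list, and a fixed set of 12 further genes, some of which are not reported here, and 3 genes were named by their likeness to Slc3a2 among genes with a mean of at least 50. Promoter windows came from RefSeq (GRCm38.p6). Protein sequences were not used here.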

Additional observations from a re-analysis of the deposited data

Results flagged for a closer look

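In 30 groups of 4 libraries (10 members in 3 groups), 1 library stood apart from its group in 2, where chance gives about 1 in 20, or 1.5 groups. At 1 h, Slc3a2 had 12392 normalized counts in mouse 2, above 11657 to 11770 in the other mice, and without that library the log2 fold change at 1 h was 1.12. At 4 h, Slc7a8 had 3188 normalized counts in mouse 2, below 4050 to 4094 in the others.

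The effects at 4 h and 1 h differed for 3 members, tested as the difference between the 2 times in edgeR's fit. The difference was -0.54 on the log2 scale for Slc3a2 and -0.71 for Slc7a1, both lower at 4 h than at 1 h in 4 of 4 mice. It was 0.26 for Slc38a1, higher at 4 h in 4 of 4 mice.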

How the results depend on the processing

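Of 597 log2 fold changes of members under the 20 alternative settings, 539 kept their direction and their side of the threshold, 8 kept the direction but were no longer called, 28 were newly called and 22 changed sign, each of the 22 for a value that was not called. With the mouse as a replicate block, 6 members were called higher at 1 h, 1 lower at 4 h, and 2 higher and 4 lower between 1 h and 4 h. The block ended no call of a member. Members called higher between 1 h and 4 h numbered 2 with DESeq2 and 3 with scaling by library size only, and members called lower numbered 4 when the 2 groups were fitted alone. With scaling by library size only, 1969 genes were called lower at 1 h and 3503 higher between 1 h and 4 h. Leaving out 1 library gave 0 to 2 members called higher between 1 h and 4 h and 0 to 1 called lower at 4 h.

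The sign of Slc1a5 at 1 h changed to 0.0038 with DESeq2, 0.0037 with RLE scaling, 0.0068 with limma-voom, 0.0066 with the block, 0.0014 with no filter and 0.0056 with the 2 groups alone, and leaving out 1 library gave -0.082 to 0.078. At 1 h, scaling by library size only gave -0.065 for Slc7a7 and -0.035 for Slc43a2, and leaving out 1 library gave -0.030 to 0.045 and -0.017 to 0.086. Leaving out 1 library gave -0.031 to 0.24 for Slc38a2 at 4 h and -0.092 to 0.20 for Slc7a2 between 1 h and 4 h. The cause of these changes was not tested. A mean count of at least 50 left no value for Slc7a2. Slc7a2 and Slc7a5, with the fewest counts, had the widest intervals.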
